A study of Mus musculus with 16 samples.

Results

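The Iroquois homeobox genes Irx1 to Irx6 encode transcription factors of the TALE class, in which an extra stretch of amino acids lengthens the loop between helices of the DNA-binding homeodomain. All rows of the deposited heart gene table whose symbol was Irx1, Irx2, Irx3, Irx4, Irx5 or Irx6 were taken, which gave 6 of the 37991 genes in the table. Of these, 5 passed the filter on low counts and were tested among 14612 genes, and Irx2, with 3 counts in all 16 libraries together, was not. At this stage Irx4 was the most abundant member, Irx5 and Irx1 followed, Irx6 and Irx3 were low, and Irx2 was at the limit of detection. None of the 5 tested members passed the test between any of the 4 Tbx5 genotypes, where 0% to 0.335% of all tested genes did. Every member had libraries that overlapped between all genotypes. Only 0.602% to 2.47% of tested genes, per comparison and direction, had libraries that did not. Against shares this low, neither is a result about the family.

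Bulk polyA RNA from mouse embryonic hearts at E10.5 was profiled in 4 libraries of each of 4 genotypes. These were wild type (WT), the heterozygotes Tbx5 CreERT2/+ and Tbx5 del/+, and hearts labelled Tbx5 del/CreERT2, written CreERT2/del here. Tbx5 is a T-box transcription factor required for early heart development. The del/+ hearts carried the del allele over a wild-type allele, the CreERT2/+ hearts carried the CreERT2 allele over a wild-type allele, and the CreERT2/del hearts carried both altered alleles and no wild-type allele. CreERT2 is a Cre recombinase that becomes active only with an estrogen receptor ligand, and the labels name no such agent, no strain and no floxed target. They do not say whether the libraries came from separate embryos, pools or litters, so a p-value here speaks of the spread among these libraries alone, which may be technical. Levels are given as CPM, counts scaled to the library total multiplied by its TMM size factor. These factors ran from 0.588 to 2.42. Tbx5 itself was at 19.7 ± 5.24 CPM in the WT hearts, 22.4 ± 1.79 in CreERT2/del, 31.2 ± 7.18 in del/+ and 24.5 ± 9.91 in CreERT2/+ (SD, n = 4 each), and it passed the test in no comparison. Which part of Tbx5 the altered alleles keep is not given in the sources used here, so the whole-gene count does not check the labels.

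Vertebrate Irx genes lie in clusters of 3 and help to set regional identity in the limb, the neural tube and the heart. In the mouse heart Irx4 is known as a gene of ventricular muscle, Irx3 as a gene of the trabeculae and later of the fast conduction system, Irx1 and Irx2 as genes of the ventricular septum, and Irx5 as a gene of the endocardium in the embryo and of the ventricular wall after birth. Less is known of Irx6 in the heart. In the deposited annotation (mm9) the first cluster holds Irx1 at chr13:72095680-72101171 on the minus strand, Irx2 at chr13:72766245-72771644 on the plus strand and Irx4 at chr13:73397945-73407068 on the plus strand, and spans 1311 kb. The second cluster holds Irx3 at chr8:94322428-94325553 on the minus strand, Irx5 at chr8:94881695-94885351 on the plus strand and Irx6 at chr8:95198188-95204855 on the plus strand, and spans 882.4 kb.

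Total counts per library ran from 21436305 to 42731841, and mitochondrial ribosomal RNA took 42.3% to 78.3% of them, which left 6611755 to 16796193 counts for all other genes. The libraries WT 4, CreERT2/+ 3 and CreERT2/del 3 had the lowest mitochondrial ribosomal RNA share of their genotype. A count of 3 in a library, taken here as the limit that a count of 0 allows, was worth 0.0516 to 0.154 CPM, for counting error only. The labelled tissue was borne out by heart muscle markers, which summed to 16316 to 19993 CPM in every library, although Tnnc1 of that list was at 0 in all of them. Neural tube markers, a possible outside source of Irx transcripts, summed to 1.08 to 5.20 CPM, limb and body wall markers to 0.481 to 2.21 CPM and foregut markers to 0.360 to 2.21 CPM. Neural crest markers summed to 2.67 to 6.45 CPM, cushion and outflow markers to 105.6 to 208.7, erythroid markers to 1224 to 4729.7 and liver markers to 1.66 to 276.8, the last of these highest in a del/+ library. Their part in the Irx values was not tested.

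The Irx genes share stretches of the homeobox, which bears on how far reads can be told apart between them. In the 15 pairs of members the longest run of identical transcript bases was 88, the median 32 and the shortest 23, and 3 pairs shared a run of 50 or more. The longest and the next longest of the pairs are shown from the GENCODE vM21 transcripts (GRCm38), 120 coding bases of each gene with the shared run in capitals. They lie at chr8:91800475-91800594 (minus strand, exon 2 of 4) for Irx3, chr8:92677326-92677445 (plus strand, exon 4 of 6) for Irx6, chr13:72630706-72630825 (plus strand, exon 2 of 5) for Irx2 and chr8:92359669-92359788 (plus strand, exon 2 of 3) for Irx5.
Irx3: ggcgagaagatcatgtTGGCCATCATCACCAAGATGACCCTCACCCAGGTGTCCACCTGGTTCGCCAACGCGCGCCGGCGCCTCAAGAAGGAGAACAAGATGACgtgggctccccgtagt
Irx6: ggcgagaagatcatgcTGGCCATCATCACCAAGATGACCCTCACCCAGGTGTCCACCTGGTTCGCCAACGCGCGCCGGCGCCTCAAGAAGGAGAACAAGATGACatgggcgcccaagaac
Irx2: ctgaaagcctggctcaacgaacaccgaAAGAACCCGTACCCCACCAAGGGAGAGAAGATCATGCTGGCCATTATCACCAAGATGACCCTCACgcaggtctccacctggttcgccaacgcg
Irx5: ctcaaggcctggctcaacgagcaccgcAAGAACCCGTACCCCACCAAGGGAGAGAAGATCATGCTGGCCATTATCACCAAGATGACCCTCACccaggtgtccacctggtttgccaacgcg
The Irx3 and Irx6 stretches were identical at 112 of 120 positions, and the Irx2 and Irx5 stretches at 113 of 120. The 88-base run made up 3.19% of the Irx3 gene model and 2.61% of that of Irx6, and the 65-base run made up 1.97% of the Irx2 model and 2.71% of that of Irx5. Reads that fell wholly inside such a run could not be assigned by sequence alone. The names of the deposited count columns carry the tag q30, which may stand for a cutoff on mapping quality, and how such reads were treated is not stated further. The near absence of Irx2 counts beside 989 Irx5 counts over the same libraries shows that few reads of Irx5 had been credited to Irx2.

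Compared per length, the mean over 16 libraries was 2.32 CPM per kb of gene model for Irx4, 0.808 for Irx5, 0.541 for Irx1, 0.349 for Irx6, 0.277 for Irx3 and 0.00118 for Irx2. These levels put Irx4 at percentile 64.8 of the levels of tested genes, Irx5 at 39.4, Irx1 at 30.1, Irx6 at 21.4 and Irx3 at 17.7. Between libraries, the top and the bottom of the order were firm and the middle was not. Whether the counting missed Irx2 reads was not tested, and the heart muscle marker Tnnc1 was at 0 in this table. Irx4 was above Irx5 in 16 of 16 libraries and Irx3 was above Irx2 in 16 of 16. Irx5 was above Irx1 in 13 of 16 libraries, Irx1 above Irx6 in 11 and Irx6 above Irx3 in 10, so the latter steps were not separated beyond the spread between libraries. Irx4 alone gave 37.3% to 70.5% of the counts of the family in a library.

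**Figure D1:**
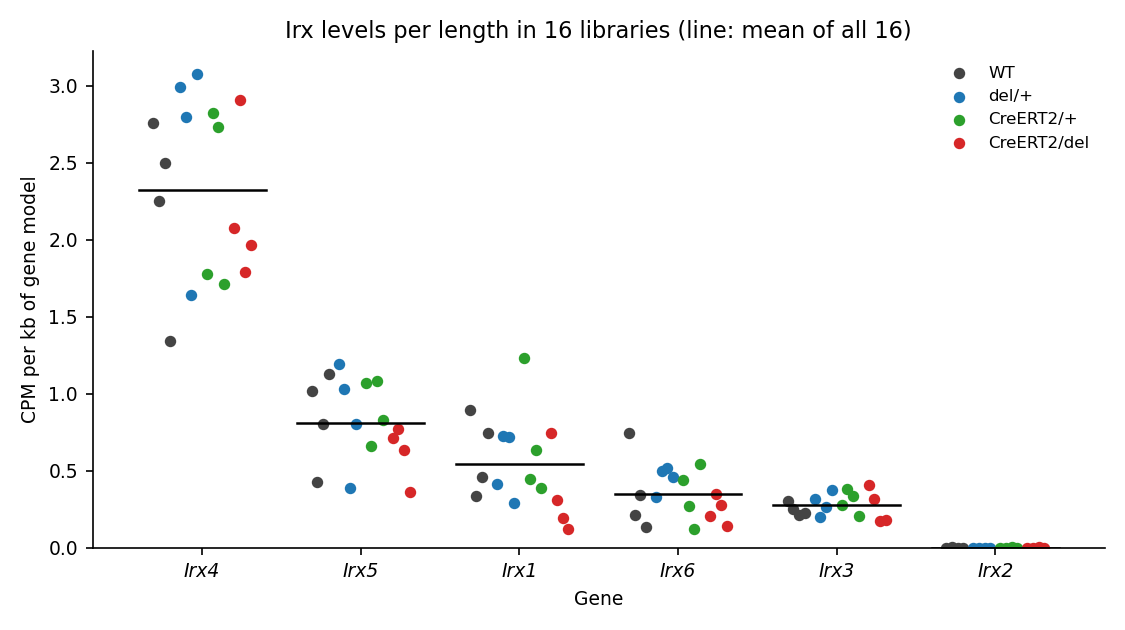
Level of each Irx gene per length (y axis, CPM per kb of gene model) in 16 E10.5 heart libraries, coloured by genotype, with a line at the mean of all 16. Irx4 averages 2.32 and is above Irx5 in 16 of 16 libraries, and Irx2 lies at 0 on this scale.

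Irx4, known as a ventricular factor that keeps atrial genes low in ventricular muscle, was read at 7.17, 5.87, 6.49 and 3.50 CPM in WT and at 7.78, 7.28, 4.27 and 8.0 in del/+. It was read at 4.62, 7.34, 7.11 and 4.46 CPM in CreERT2/+ and at 5.39, 7.57, 4.66 and 5.11 in CreERT2/del. Each genotype held high and low libraries, and the 4 ranges lay almost on top of each other. The means were 5.76 ± 1.6 CPM in WT, 5.68 ± 1.29 in CreERT2/del, 6.83 ± 1.73 in del/+ and 5.88 ± 1.55 in CreERT2/+ (SD, n = 4 each), from 87 to 369 counts per library. The log2 fold change against WT was -0.020 ± 0.26 (SE) in CreERT2/del, 0.25 ± 0.26 in del/+ and 0.039 ± 0.26 in CreERT2/+, and none passed edgeR's quasi-likelihood test after Benjamini-Hochberg adjustment. Irx4 was the member measured most precisely: its 95% interval in CreERT2/del ran from 0.674 to 1.44 times the WT level, and levels inside that range could not be told from WT. Of the 3 libraries low in mitochondrial ribosomal RNA, WT 4 and CreERT2/del 3 had the lowest Irx4 of their genotype, while CreERT2/+ 3, with the lowest share, was near the top of its own at 7.11 CPM. The CreERT2/del change was -0.11 with these 3 left out, -0.028 with the ribosomal RNA genes removed first and -0.021 with their share as a covariate. In bulk hearts, fewer cells of a type and less RNA per cell cannot be told apart.

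Irx1 showed the lowest CreERT2/del levels relative to WT of the members, without passing the test. Its levels were 2.13, 0.798, 1.10 and 1.76 CPM in WT and 0.991, 1.72, 1.70 and 0.688 in del/+. They were 2.93, 1.06, 1.5 and 0.922 CPM in CreERT2/+ and 1.77, 0.740, 0.464 and 0.290 in CreERT2/del. The libraries CreERT2/del 2, 3 and 4 were below every WT library, and CreERT2/del 1 was as high as WT 4. CreERT2/del 1 also had the highest sum of neural tube markers, whose part in its Irx1 level was not tested. The means were 1.45 ± 0.608, 1.27 ± 0.518, 1.6 ± 0.917 and 0.815 ± 0.660 CPM in the same order of genotypes (SD, n = 4 each), from 11 to 78 counts per library. The log2 fold change in CreERT2/del against WT was -0.89 ± 0.51 (SE; 95% interval -1.95 to 0.17), with an unadjusted p of 0.0962 and an adjusted p of 0.9814 by edgeR. Without CreERT2/del 1 it was -1.55, and with WT 4, CreERT2/+ 3 and CreERT2/del 3 all left out it was -0.57; neither passed after adjustment. In del/+ it was -0.18 ± 0.50 and in CreERT2/+ 0.14 ± 0.50. The gene-wise biological coefficient of variation of Irx1 was 0.468, above the 0.404 of the trend for genes of its level, and that of Irx4 was 0.267 against 0.278.

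Irx2, the remaining member of the chromosome 13 cluster, was read with 1 count each in WT 2, CreERT2/+ 3 and CreERT2/del 3 and with 0 in the other 13 libraries. At this depth no difference between genotypes was detectable. Irx2 was not tested by edgeR after the filter, it was not called in the refits without a filter on low counts, and no fold change is given.

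Irx3, known as a trabecular factor needed for rapid conduction in the ventricles, was read at 0.846, 0.695, 0.588 and 0.631 CPM in WT and at 0.877, 0.560, 0.729 and 1.03 in del/+. It was read at 0.771, 1.06, 0.925 and 0.563 CPM in CreERT2/+ and at 1.13, 0.875, 0.481 and 0.50 in CreERT2/del. The CreERT2/del libraries were on both sides of all 4 WT libraries. The means were 0.690 ± 0.113, 0.799 ± 0.202, 0.831 ± 0.215 and 0.746 ± 0.312 CPM (SD, n = 4 each), from 11 to 48 counts per library. Its coefficient of variation over the 16 libraries was 26.9%, against 20.4% from counting alone. The log2 fold changes against WT were 0.21 ± 0.41 in del/+ and 0.28 ± 0.41 in CreERT2/+. In CreERT2/del the change was 0.085 ± 0.41 (SE), and its 95% interval ran from 0.590 to 1.91 times the WT level.

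D230002A01Rik, whose current symbol is Irx3os, lies on the opposite strand and overlaps Irx3 by 124 exonic bases, and without stated strand use in counting the reads of both cannot be told apart there. It had 0 to 46 counts per library, with the 46 in WT 3 and at most 16 in any other. WT 3 had 22 Irx3 counts, the lowest of the 4 WT libraries, so the high count of the antisense gene did not come with a high count of Irx3.

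Irx5, an endocardial member in the embryo, was read at 2.45, 1.03, 1.92 and 2.71 CPM in WT and at 2.86, 2.48, 0.937 and 1.93 in del/+. It was read at 2.57, 1.59, 2.60 and 2.00 CPM in CreERT2/+ and at 1.72, 1.85, 1.53 and 0.869 in CreERT2/del. CreERT2/del 4 was the lowest of all 16 libraries, yet WT 2 was below the other 3 CreERT2/del libraries. Of the libraries low in mitochondrial ribosomal RNA, WT 4 and CreERT2/+ 3 had the highest Irx5 of their genotype, and CreERT2/del 3 lay within its own. The means were 2.03 ± 0.742, 2.05 ± 0.835, 2.19 ± 0.485 and 1.49 ± 0.435 CPM (SD, n = 4 each), from 27 to 135 counts per library. The log2 fold changes against WT were 0.016 ± 0.36 in del/+ and 0.11 ± 0.36 in CreERT2/+. For CreERT2/del it was -0.45 ± 0.36 (SE), with a 95% interval of 0.434 to 1.24 times WT. Endocardial and endothelial markers summed to 198.8 to 264.2 CPM in WT and 198.2 to 209.5 CPM in CreERT2/del, 0 of the 10 tested were called, and their median log2 fold change was -0.19. Their part in the Irx5 values was not tested.

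Irx6 was read at 2.51, 0.720, 1.15 and 0.447 CPM in WT and at 1.11, 1.68, 1.74 and 1.55 in del/+. It was read at 1.49, 0.922, 0.405 and 1.84 CPM in CreERT2/+ and at 0.686, 1.18, 0.946 and 0.474 in CreERT2/del. WT 1 was the highest and CreERT2/+ 3 the lowest of all libraries, and both WT and CreERT2/+ spread wider than the gap between any of the means. Of the libraries low in mitochondrial ribosomal RNA, WT 4 and CreERT2/+ 3 had the lowest Irx6 of their genotype. CreERT2/del 3 lay within the range of its own. The part of the ribosomal RNA share in this spread was not tested. The means were 1.21 ± 0.915, 1.52 ± 0.286, 1.17 ± 0.633 and 0.821 ± 0.306 CPM (SD, n = 4 each), from 14 to 86 counts per library. The log2 fold changes against WT were -0.54 ± 0.50 (SE) in CreERT2/del, 0.34 ± 0.49 in del/+ and -0.083 ± 0.50 in CreERT2/+. Leaving out WT 1 alone turned the CreERT2/del change to 0.078, so its sign rested on that library.

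**Figure D2:**
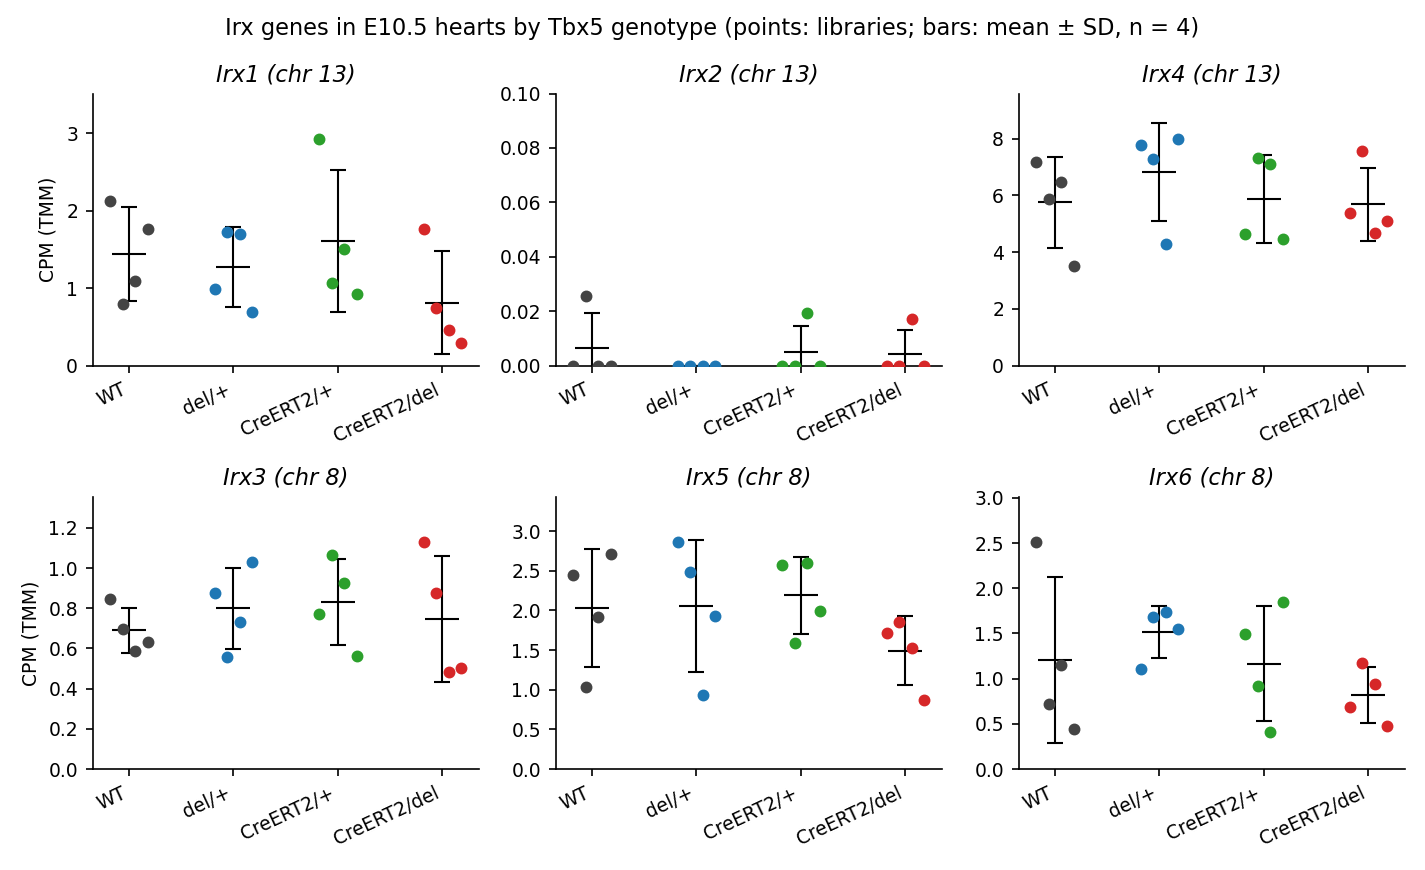
Level of each Irx gene (y axis, CPM after TMM scaling, each panel on its own scale from 0) in the 4 libraries of each Tbx5 genotype, with bars for the mean ± SD. The libraries overlap between all genotypes, and 3 of the 4 CreERT2/del libraries for Irx1 lie below the WT libraries. Of all tested genes, 0.602% to 2.47% per comparison and direction do not overlap.

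Tested over all genes, 0 of the 5 members passed in CreERT2/del against WT at an adjusted p under 0.05 by edgeR, where 0.335% of all tested genes (49 of 14612) did. With shares this low, 0 of 5 is no result about the family. None of the 5 had an unadjusted p under 0.05, against 5.67% of all genes, and none had libraries apart from those of WT, against 2.31% of genes higher and 1.96% lower. DESeq2 and limma-voom called 0 members as well, with 0 and 1 under an unadjusted 0.05. The median log2 fold change of the 5 was -0.45 against -0.0032 over all genes, with 4 members negative.

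In del/+ against WT, 0 of 5 members passed, against 0.116% of genes (17), and 0 had an unadjusted p under 0.05, against 5.81%. No member's libraries were apart from WT, against 2.18% of genes higher and 1.88% lower. The median of the 5 was 0.21 against -0.016 over all genes. In CreERT2/+ against WT, 0 of 5 passed, against 0.0342% of genes (5), and 0 had an unadjusted p under 0.05, against 3.71%. Again no libraries were apart, against 1.05% of genes higher and 0.602% lower, and the median of the 5 was 0.11 against 0.013. In both comparisons DESeq2 and limma-voom also called 0 members and had 0 under an unadjusted 0.05. All 3 comparisons share the 4 WT libraries.

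**Figure D3:**
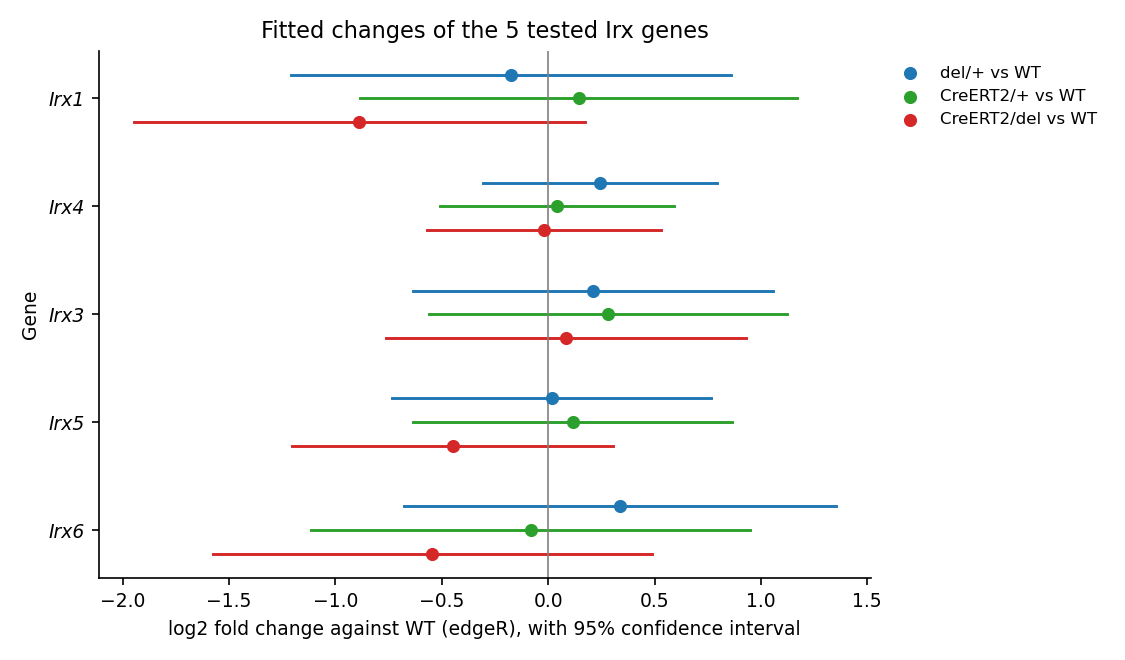
Log2 fold change against WT (x axis) with its 95% confidence interval for the 5 tested Irx genes (y axis) in del/+, CreERT2/+ and CreERT2/del hearts, from edgeR. Every interval includes 0; the narrowest are those of Irx4 and the widest those of Irx1 and Irx6.

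CreERT2/del was also compared with each heterozygote. All 5 tested members were lower in CreERT2/del than in del/+, by a median log2 fold change of -0.46 against 0.0043 over all genes, but 0 passed by edgeR, against 0.0205% of genes (3), and 0 had an unadjusted p under 0.05, against 5.08%. No member's libraries were apart there, against 2.47% of genes higher and 1.72% lower. The lowest p was that of Irx6, at -0.88 ± 0.50 (SE; unadjusted p = 0.0924, adjusted p = 0.9988). All 5 were lower than in CreERT2/+ too, by a median of -0.46 against -0.015, and again 0 passed, against 0.0753% of genes (11), with 0 under an unadjusted 0.05, against 3.97%. Here too no libraries were apart, against 1.24% of genes higher and 1.25% lower. Irx1 had the lowest p here, at -1.03 ± 0.52 (SE; unadjusted p = 0.0582, adjusted p = 0.9995). DESeq2 and limma-voom called 0 members in both; the count under an unadjusted 0.05 was 0 and 1 against del/+, and 1 and 1 against CreERT2/+. Both comparisons use the same CreERT2/del libraries, so their shared signs are not separate evidence.

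Between the heterozygotes, CreERT2/+ against del/+, 0 of 5 members passed by edgeR, as did 0 of all 14612 genes, with 0 members and 4.18% of genes (611) under an unadjusted 0.05. No member's libraries were apart, against 1.44% of genes higher and 0.883% lower. Irx6 had the lowest p of the members, at -0.42 ± 0.50 (SE; unadjusted p = 0.411). The interaction is the change in CreERT2/del beyond the sum of both heterozygous changes. It was negative for all 5, with a median of -0.58 against -0.0071 over all genes. It uses the same CreERT2/del libraries as the comparisons above, so the shared sign is not separate evidence. None of the 5 members passed, against 0.0411% of genes (6), and 0 had an unadjusted p under 0.05, against 4.34%. The lowest p was that of Irx1, at -0.86 ± 0.71 (SE; unadjusted p = 0.2444, adjusted p = 0.9957). DESeq2 and limma-voom called 0 members in both and had 0 under an unadjusted 0.05. The authors' deposited table gives values for the same 5 members in 6 comparisons, with false discovery rates from 0.988 to 1 and a lowest p-value of 0.0602.

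The patterns of the members across libraries were compared. Among the 10 pairs of tested members, 2 had an unadjusted permutation p under 0.05 over the 16 libraries for Pearson's r of log2(CPM + 1), and none passed after adjustment over the 10. Irx1 and Irx5, on different chromosomes, had r = 0.52 (permutation p = 0.0383, adjusted p = 0.231) and Spearman's rho = 0.49 (permutation p = 0.0594). Without CreERT2/+ 1 and CreERT2/del 4, the libraries farthest from the median of Irx1, r was 0.30. Leaving out the farthest libraries narrows the range of Irx1, which by itself can lower r. Irx3 and Irx4 had r = 0.51 (permutation p = 0.0462, adjusted p = 0.231) and rho = 0.51 (permutation p = 0.0478), and r was 0.58 without CreERT2/del 1 and 3. With the genotype means taken out, r was 0.41 for the former pair and 0.50 for the latter, and in the 13 libraries other than those low in ribosomal RNA it was 0.47 and 0.40. In those 13 libraries Irx1 and Irx6 had r = 0.53 and Irx5 and Irx6 had r = 0.52, against 0.30 and 0.17 in all 16. Irx1 and Irx4 of the same cluster had r = -0.16.

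The genes whose library pattern was most like that of a member were sought among 11227 genes, as a description over the same 16 libraries, which share depth and ribosomal RNA share. For Irx4 they were Ppm1g (r = 0.83), Tcof1 (0.83) and Usp21 (0.81), and for Irx5 they were Smtnl2 (r = 0.89), Psap (0.85) and Entpd6 (0.85). For Irx1 they were Ddr1 (r = 0.81), Srebf2 (0.78) and Adora1 (0.77), and for Irx6 they were Tsfm (r = 0.81), Cyc1 (0.77) and Mov10l1 (0.75). No member was among the 3 genes most like another, and Irx3, under a mean of 1 CPM, was not matched.

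Genes reported as targets of Irx proteins in the heart were read beside the members. Of the 7 read here, all tested, 1 fell in CreERT2/del against WT by edgeR and none rose, where 0.335% of all tested genes were called. The median log2 fold change was -0.28 against -0.0032 over all genes. Gja5, which encodes the connexin of atrial and trabecular gap junctions, averaged 53.4 ± 16.5 CPM in WT, 4.39 ± 1.04 in CreERT2/del, 18.1 ± 3.0 in del/+ and 33.2 ± 5.22 in CreERT2/+ (SD, n = 4 each). It fell by 3.61 ± 0.26 (SE) on the log2 scale in CreERT2/del (adjusted p = 1.45e-08) and by 1.56 ± 0.23 in del/+ (adjusted p = 0.00185). As background, Gja5 is also known as a direct target of Tbx5. In del/+ Gja5 was again the 1 of 7 that fell (median -0.20 against -0.016), and in CreERT2/+ 0 of 7 were called (median 0.0030 against 0.013).

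The others of these 7 did not pass. Kcnd2, the potassium channel subunit that Irx5 is known to repress in the adult mouse ventricle, was at 1.4 ± 0.485 CPM in WT and 0.667 ± 0.151 in CreERT2/del (log2 fold change -1.07 ± 0.48). Cxcl12, a chemokine gene, was at 7.02 ± 1.88 CPM in WT and 12.7 ± 1.90 in CreERT2/del (0.86 ± 0.25). Myh6, the alpha myosin heavy chain, was at 449.8 ± 75.3 and 320.1 ± 40.4 CPM (-0.49 ± 0.22). Bmp10, a trabecular growth factor, was at 8.47 ± 1.93 and 8.88 ± 1.27 CPM. Gja1, another gap junction gene, was at 34.2 ± 5.40 and 28.1 ± 6.28 CPM, and Nppa, a natriuretic peptide gene, at 44.4 ± 11.6 and 43.5 ± 16.6 CPM.

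Reported partners and upstream factors of Irx genes were also read, 12 in all and all tested. None was called in CreERT2/del, del/+ or CreERT2/+ against WT, with medians of 0.20, 0.071 and 0.17. Over all tested genes 0.335%, 0.116% and 0.0342% were called there. Hey2, a repressor of the compact ventricular layer, was at 8.12 ± 1.18 CPM in WT and 10.9 ± 0.962 in CreERT2/del. Smyd1, a muscle methyltransferase upstream of Irx4 in the mouse, was at 218.3 ± 63.9 and 188.1 ± 26.1 CPM, and Hand1, a factor of the outer curvature, at 22.2 ± 6.26 and 13 ± 4.81 CPM. The other TALE homeobox genes, of the Meis, Pbx, Pknox, Tgif and Mkx families, numbered 12, of which 10 were tested and 0 called in the same 3 comparisons, with medians of 0.12, 0.13 and 0.11.

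**Figure D4:**
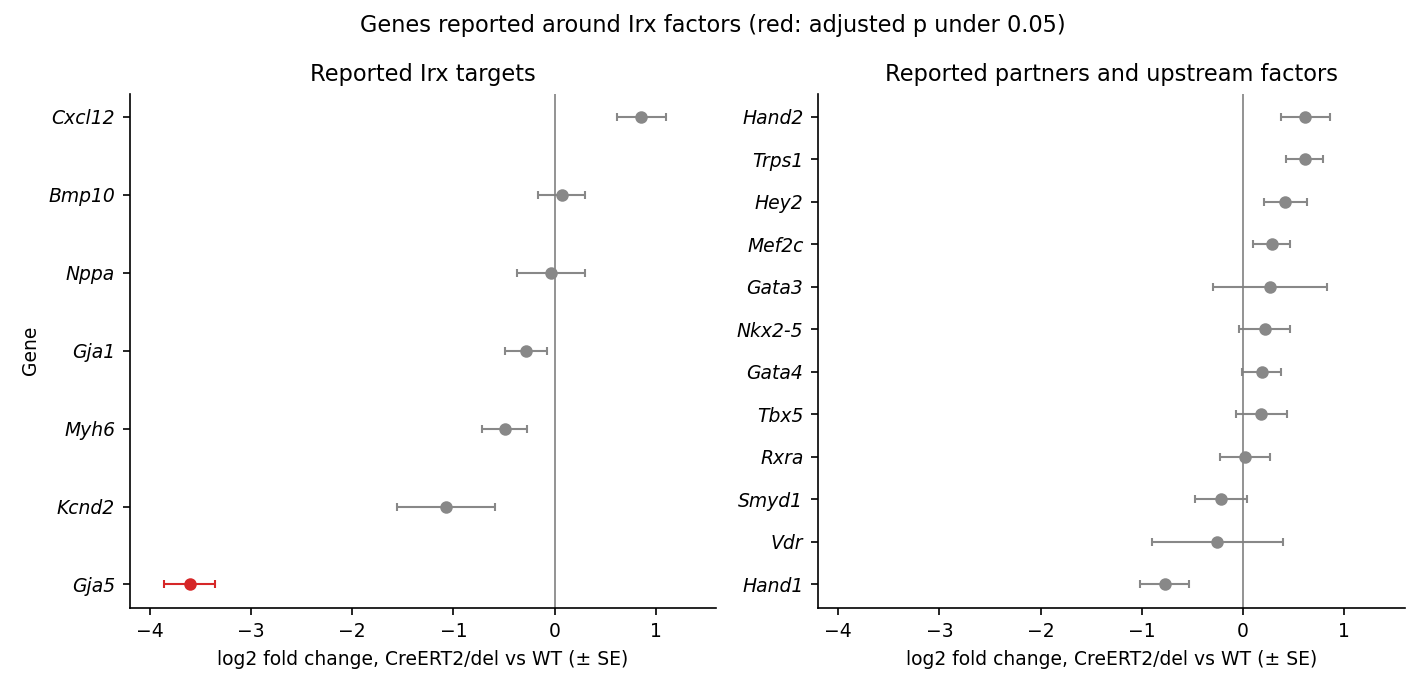
Log2 fold change in CreERT2/del against WT (x axis, ± SE) for 7 reported targets of Irx proteins in the heart (left) and 12 reported partners and upstream factors (right), with an adjusted p under 0.05 in red. Gja5 at -3.61 is the gene marked.

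Marker lists of the regions in which Irx genes are known to act were set beside the members. Over all tested genes 0.335%, 0.116% and 0.0342% were called in CreERT2/del, del/+ and CreERT2/+ against WT. The lists were chosen with earlier results of these data known, and Gja5 is also in the list of reported targets. Of 9 trabecular genes, which include Irx3, 2 fell in CreERT2/del by edgeR: Gja5 and Cpne5 (-1.47 ± 0.25, adjusted p = 0.00856), with a list median of -0.33. In the other comparisons with WT, Gja5 alone fell in del/+ (median -0.36) and 0 of 9 were called in CreERT2/+ (median -0.060). Of 8 ventricular and compact layer genes 0 were called in these 3 comparisons, with medians of 0.13, 0.28 and 0.19 in CreERT2/del, del/+ and CreERT2/+. Of 11 tested atrial and sinus genes, the lipid-binding gene Stard10 fell in CreERT2/del (-2.05 ± 0.33, adjusted p = 0.0048; list median -0.26) and 0 were called in both heterozygotes. Epicardial markers summed to 103.8 to 129.3 CPM in WT and to 66.8 to 83.0 CPM in CreERT2/del, with a median of -0.65 and 0 of 7 called. Their part in the Irx values was not tested.

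The neighbourhoods of both clusters were examined for genes that moved beside the members. Within 1 Mb of the chromosome 13 cluster lay 30 other genes, of which 17 were tested, and within 1 Mb of the chromosome 8 cluster lay 29, of which 9 were tested. None of them was called in any of the 7 comparisons, in which 0% to 0.335% of all tested genes were. With shares this low, the absence of calls is no result about the neighbourhoods. In CreERT2/del against WT their medians were 0.040 and -0.021. The nearest to Irx5, at 1676 bases on the opposite strand, was 4933436C20Rik (current symbol Crnde), at 3.00 ± 0.660 CPM in WT and 1.88 ± 1.29 in CreERT2/del (log2 fold change -0.72 ± 0.38, adjusted p = 0.9541).

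**Figure D5:**
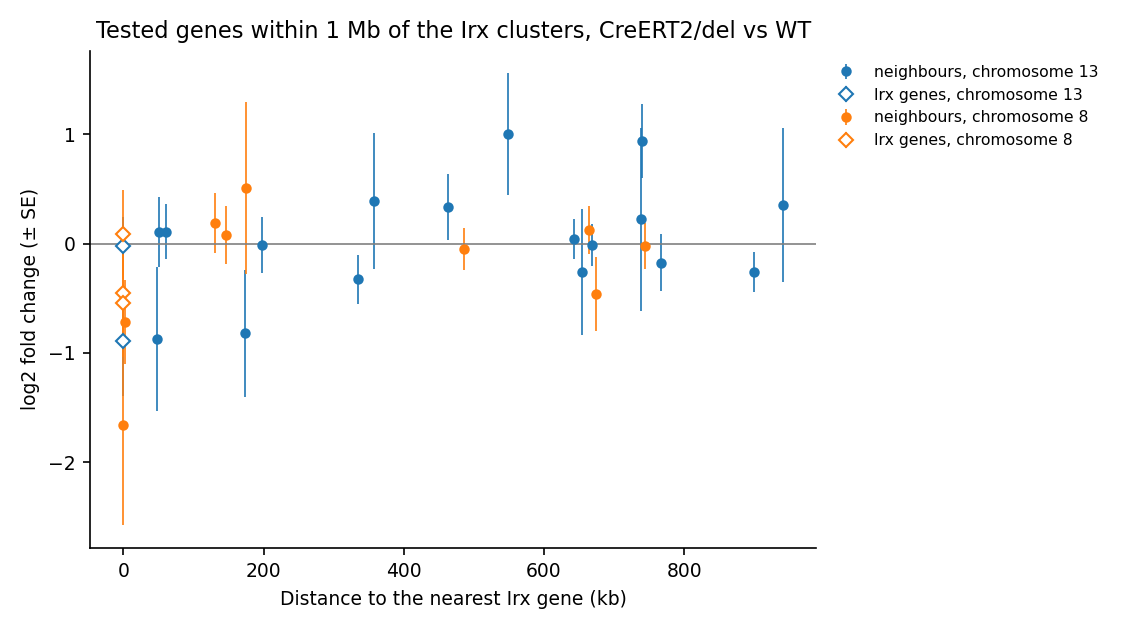
Log2 fold change in CreERT2/del against WT (y axis, ± SE) of the 26 tested neighbours within 1 Mb of the Irx clusters against the distance to the nearest Irx gene (x axis, kb), with the Irx genes as open diamonds at 0. None of the neighbours passed the test, against 0.335% of all tested genes.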

How the data were processed

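Gene counts of polyA RNA in 16 libraries of E10.5 mouse heart were used as deposited by the authors. The authors deposited them as raw counts per gene, labelled here as estimated counts (expected counts) although all values are whole and none was rounded. They were made with TopHat2, featureCounts, edgeR and mm9 per the submitters' processing notes. Neither versions nor the use of strand is stated there. The authors' deposited p-values and false discovery rates are quoted once, and their deposited log2 fold changes were not printed. A further 52 columns of samples or means were not used.

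Counts were filtered by expression, scaled by TMM and fitted over all 4 genotypes with edgeR 4.0.16 in R 4.3.3 (glmQLFit, glmQLFTest). P-values were adjusted by Benjamini-Hochberg over 14612 genes, with a threshold of 0.05 and 7 comparisons. CPM use the TMM-scaled total, ribosomal RNA included, and are divided by gene model length where levels are compared. DESeq2 1.42.0 and limma 3.58.1 were alternatives, and the fit was tested on simulated data. Correlations used log2(CPM + 1) and 1e+05 permutations. All 15 member pairs were searched for shared runs.

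The members and the gene lists were chosen with earlier results of these data known. Named were all 6 members, the member with the lowest p in comparisons without WT, up to 4 called genes per list, the 3 genes most like each member and called neighbours; other named list genes and neighbours were chosen after their values were seen. Replicate numbers were not used as pairs in the main fits. Over 24 same-numbered pairs the median correlation of deviations was 0.0246, with a range of -0.325 to 0.487. Such a median cannot exclude that some of the numbers pair libraries. No libraries looked like duplicates. A gene left out of the list of reported targets is not reported here.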

Additional observations from a re-analysis of the deposited data

How the results depend on the processing

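The count of called members was 0 in all 181 refits over 26 settings and 7 comparisons. In 18 of them a member had an unadjusted p under 0.05. In the main fits 3.71% to 5.81% of all tested genes had such a p. The refits share libraries, so the 18 are no result about the members. The interaction could not be fitted with the groups compared alone. The lowest adjusted p of the 5 tested members against WT was 0.4883. Of 378 refitted member fold changes against WT, 350 kept their sign and 28 turned, all in uncalled members, and 6 of 15 results never turned. In CreERT2/del, Irx3 was -0.10 with limma-voom and Irx4 0.0050 when only genes of at least 5 CPM were tested, which left Irx4 as the tested member. In del/+, Irx5 was -0.014 with limma-voom. In CreERT2/+, Irx4 was -0.24 with the 3 libraries of low ribosomal RNA share left out, and with the replicate number as a block Irx6 was 0.0063. The block called 0 members in every comparison; 6 of 16 libraries correlated best with their own number, a hint from the data at most.

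With 1 library left out in turn, the CreERT2/del changes ranged from -0.17 to 0.24 (Irx3), -0.20 to 0.083 (Irx4), -0.82 to 0.078 (Irx6), -1.55 to -0.60 (Irx1) and -0.67 to -0.26 (Irx5). The del/+ changes that turned ranged from -0.38 to 0.056 (Irx1) and -0.20 to 0.26 (Irx5). The CreERT2/+ changes that turned ranged from -0.30 to 0.38 (Irx1), -0.14 to 0.15 (Irx4), -0.11 to 0.28 (Irx5) and -0.40 to 0.54 (Irx6). The causes were not tested. Gja5, Cpne5 and Stard10 kept their calls in CreERT2/del in all refits in which they were tested. Apart from Irx4, the tested members had 11 to 135 counts per library and standard errors of 0.36 to 0.51 in CreERT2/del against WT. Over the 16 libraries their coefficients of variation were 53.7% for Irx1, 50.1% for Irx6, 33.0% for Irx5 and 26.9% for Irx3, against 16%, 16.8%, 12.7% and 20.4% from counting alone, nearest to the whole for Irx3. Over all genes, the calls in CreERT2/del, del/+ and CreERT2/+ against WT, 49, 17 and 5, became 122, 42 and 21 with DESeq2 and 189, 120 and 73 with no filter on low counts. Those in CreERT2/del against del/+, CreERT2/del against CreERT2/+, CreERT2/+ against del/+ and the interaction, 3, 11, 0 and 6, became 22, 43, 1 and 12, and 65, 92, 36 and 73.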
